A study of Saccharomyces cerevisiae with 4 samples.

Results

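Of the 1892 cytidine-modification sites listed for budding yeast mRNA, 269 (14.2%) had a mean treated level of at least 11%, and these high-level sites are described here. The level of a site is the fraction of reads that carry a mutation at that position after pyridine borane treatment, averaged over both treated replicates. The members were thus chosen by the treated levels themselves, which are given below as a description. They lay in 259 of the 1253 genes with 1 or more listed sites assigned to that gene alone (20.7%). A further high-level site was assigned to a pair of overlapping genes, YKL123W and YKL124W (SSH4). The other 1623 listed sites had levels under 11% and serve as the comparison.

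The study asks where 5-formylcytidine occurs in mRNA of Saccharomyces cerevisiae. Treated replicates 1 and 2 were libraries of fragmented poly(A)+ RNA kept in 0.9 M pyridine borane for 24 h at 37 °C and pH 5.2, and input replicates 1 and 2 were libraries of mRNA that skipped this step. The yeast, of unstated strain, had been started from a monoclonal cell off a plate and kept overnight in YPD, a rich glucose medium, at 28 °C. Nothing says whether the replicate numbers stand for separate cultures, so every SD measures only the spread between these libraries, which may be technical. Every p-value for a site rests on read counts and takes only their counting error into account.

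5-Formylcytidine is an oxidation product of 5-methylcytidine and is best known from the anticodon of mammalian mitochondrial methionine tRNA. Pyridine borane reduces the modified base to dihydrouridine, which pairs like uridine, so that a modified position is copied as T. A high mutated fraction after treatment with a low fraction in input is therefore the signature the method looks for. The table names neither the mutated base nor the place of a site in its transcript (coding or untranslated), and its genome build is not given in the sources used.

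Most high-level sites lay only a little above the threshold. Levels from 11% to under 12% were found at 98 of them, from 12% to under 13% at 59, from 13% to under 15% at 62, from 15% to under 20% at 30, and of 20% or more at 20. The median level was 12.4% at the high-level sites (quartiles 11.6% and 14.3%), against 8.80% at the other listed sites. In single libraries the high-level sites ranged from 7.71% to 98.7% in treated replicate 1 (median 12.05%) and from 9.25% to 99.3% in treated replicate 2 (median 13.6%). Just inside the threshold lay RGL1 (11.01%), ARO4 (11.01%), CAF40 (11.02%), ADE16 (11.02%) and ASH1 (11.02%), and just outside lay CSC1 (10.997%), FSF1 (10.99%), ARP4 (10.97%), RPN4 (10.97%) and SIM1 (10.97%). These 10 sites were chosen as the nearest to the threshold, so the overlap of their intervals followed from the choice. No gap in levels lay at the threshold, with CSC1 at 10.997% and RGL1 at 11.01% on its sides.

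A level of at least 20% was reached at 20 sites in as many genes. In 14 of these genes it was the lone listed site, and at 15 of the 20 both input libraries lacked mutated reads. Wilson 95% intervals, here taken over the treated reads of both replicates summed, cover counting error only. No molecular identifiers are described, so copies of a molecule may be counted as separate reads and the intervals may be too narrow.

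The transcripts of ribosomal protein eS25, encoded by the paralogs RPS25A and RPS25B, held the highest sites. RPS25A (YGR027C, chromosome VII, position 534477, minus strand) had mutations in 393 of 398 and 275 of 277 treated reads, against 2 of 386 and 3 of 321 input reads. RPS25B (YLR333C, chromosome XII, position 795916, minus strand) had them in 69 of 98 and 60 of 68 treated reads, against 2 of 93 and 2 of 62 input reads. Both treated libraries were far above both input libraries at each gene, and the paralogs can share reads. They were also the high-level sites with the highest input fractions, 2.58% at RPS25B and 0.707% at RPS25A with input replicates summed, and the next was PRP19, a splicing factor, with 1 mutated read of 228 (0.439%).

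VHT1, the plasma membrane importer of biotin, followed with 41.3% and 56.3% in treated replicates 1 and 2, from 92 and 64 reads, against 0 of 100 and 0 of 59 reads in input (chromosome VII, position 619806, minus strand). At RDH54, a DNA translocase of recombinational repair, 14 of 57 and 20 of 44 treated reads were mutated, against 0 of 67 and 0 of 56 input reads (chromosome II, position 383173, plus strand). Its treated replicates lay at 24.6% and 45.5%, the widest gap of all high-level sites, and this was the shallowest high-level site in both treated libraries.

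Of the 20 sites, 5 lay in genes of lipid transfer, vesicle traffic and vacuolar sorting, a grouping made after the values were seen. The list of vesicle coats, tethers and lipid transfer used below, which does not hold BSD2, had 50 of the 1889 listed sites assigned to single genes. OSH7, a lipid transfer protein that carries phosphatidylserine from the endoplasmic reticulum to the plasma membrane, had 32.4% and 34.8% in treated replicates 1 and 2, against 0 of 231 and 0 of 195 reads in input. VPS41 and PEP3 (Vps18) encode subunits of HOPS, the tethering complex of vacuole fusion. The VPS41 site (chromosome IV, position 604512, plus strand) had 25.5% and 37.0% in the treated libraries, against 0 of 158 and 0 of 124 reads in input, and the PEP3 site (chromosome XII, position 436721, plus strand) had 20.6% and 23.3%, against 0 of 63 and 0 of 61 reads. SFB3, a Sec24-related cargo adaptor of the COPII coat, had 154 of 461 and 81 of 295 mutated reads in the treated libraries, against 1 of 344 and 0 of 299 in input. BSD2, which directs metal transporters to the vacuole for breakdown, had 30.2% and 26.0% after treatment, against 0 of 250 and 0 of 197 reads in input. At all 5 sites the lower treated replicate lay above 20%.

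A pair of large proteasome-associated proteins also reached this range. ECM29, a scaffold that binds the proteasome core and cap, had 30.7% and 33.8% in treated replicates 1 and 2 (chromosome VIII, position 45045, plus strand), against 0 of 63 and 0 of 68 input reads. BLM10, an activator that caps the core particle, had 32.1% and 31.8% (chromosome VI, position 123665, plus strand), against 0 of 228 and 1 of 204 input reads. Their Wilson intervals of 25.2% to 39.8% and 27.8% to 36.6% overlapped.

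PSY2, a regulatory subunit of protein phosphatase 4, had 26.2% and 29.6% in the treated libraries, and TSC11 (Avo3), a subunit of TOR complex 2, had 27.3% and 26.2%. IRA2, which switches off Ras, had 21.7% and 24.5%. Each of these 3 sites had 0 mutated reads in both input libraries, and at TSC11 the 94 input reads allow an input share of up to 3.19%.

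GID12, a modulator of a ubiquitin ligase that degrades gluconeogenic enzymes, had 16.5% and 31.9% in treated replicates 1 and 2, and HBT1, a protein of mating projection shape, had 29.6% and 18.7%. The order of the replicates was thus opposite at these sites, and the gap was over 10 points at each. YGL140C, an uncharacterised open reading frame, had 32.7% and 26.9%. At FMP48, a predicted protein kinase, the replicates lay close together at 20.6% and 20.9%, from 1199 and 842 reads. KGD1, which encodes part of oxoglutarate dehydrogenase, had 21.7% and 19.7%, and SCW11, a glucanase-like cell wall protein of cell separation, had 19.8% and 20.3%. GID12, HBT1, YGL140C, KGD1 and SCW11 had no mutated input read, and FMP48 had 1 in each input library.

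**Figure D1:**
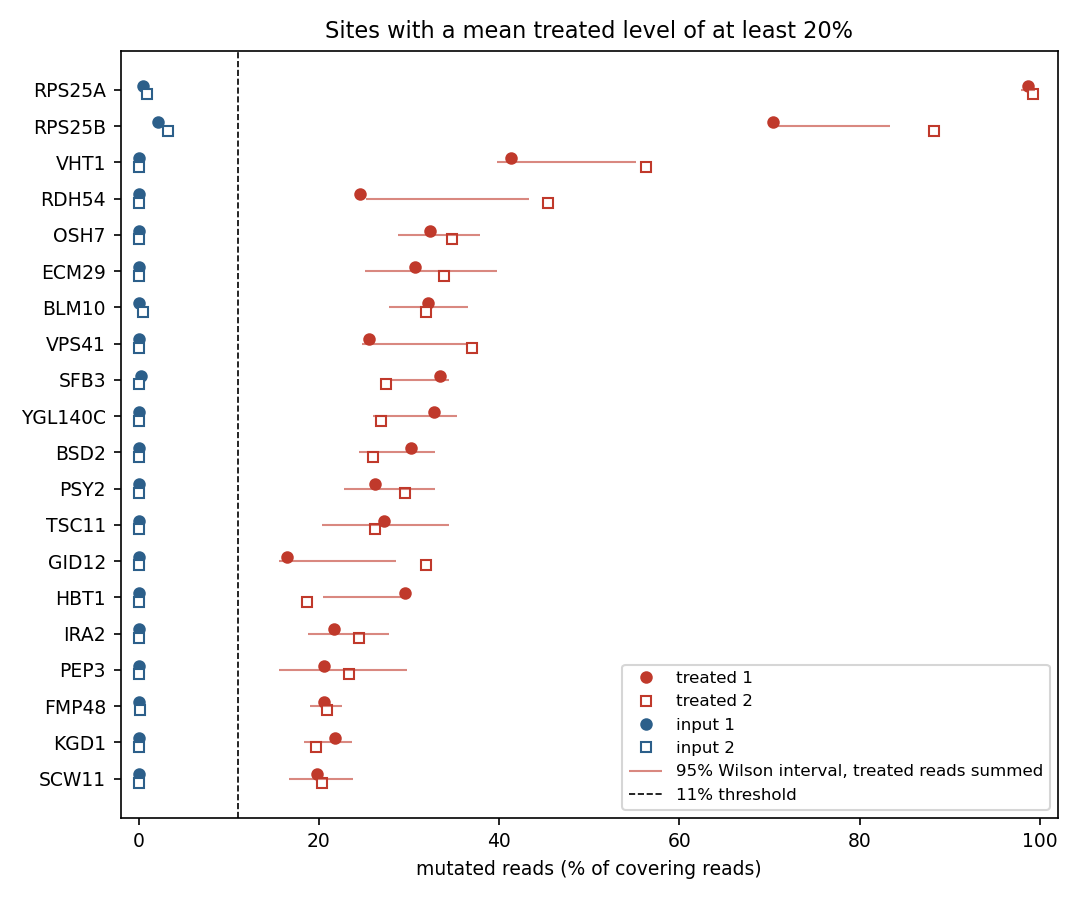
Mutated reads (% of covering reads, horizontal axis) at the 20 sites with a mean treated level of at least 20%, by gene, in treated replicates 1 and 2 (red) and input replicates 1 and 2 (blue). Lines are Wilson 95% intervals of the summed treated reads and the dashed line marks 11%. Every treated value lies right of the dashed line and every input value left of it, and RPS25A and RPS25B stand far to the right.

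High-level sites were shallow. The median coverage was 209 and 143 reads at the high-level sites in treated replicates 1 and 2, against 542 and 371 at the other listed sites, and in the input libraries it was 188 and 154 reads, against 469 and 382. With treated replicates summed, all 56 listed sites under 250 reads were high-level, and the lowest level among them was 11.5%. The share was 132 of 376 (35.1%) from 250 to under 500 reads, 46 of 677 (6.79%) from 500 to under 1000, 16 of 359 (4.46%) from 1000 to under 2000 and 19 of 424 (4.48%) from 2000 reads on. No site of the whole table had fewer than 11 and 10 mutated reads in treated replicates 1 and 2. At a coverage of up to 90 reads 10 mutated reads already make 11%, and all 36 sites this shallow in treated replicate 2 were high-level. A shallow site was listed only if its level was high, so levels of shallow and deep sites are not drawn from the same range. Under 500 summed treated reads lay 188 of the 269 high-level sites (69.9%), against 15.03% of the other listed sites.

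**Figure D2:**
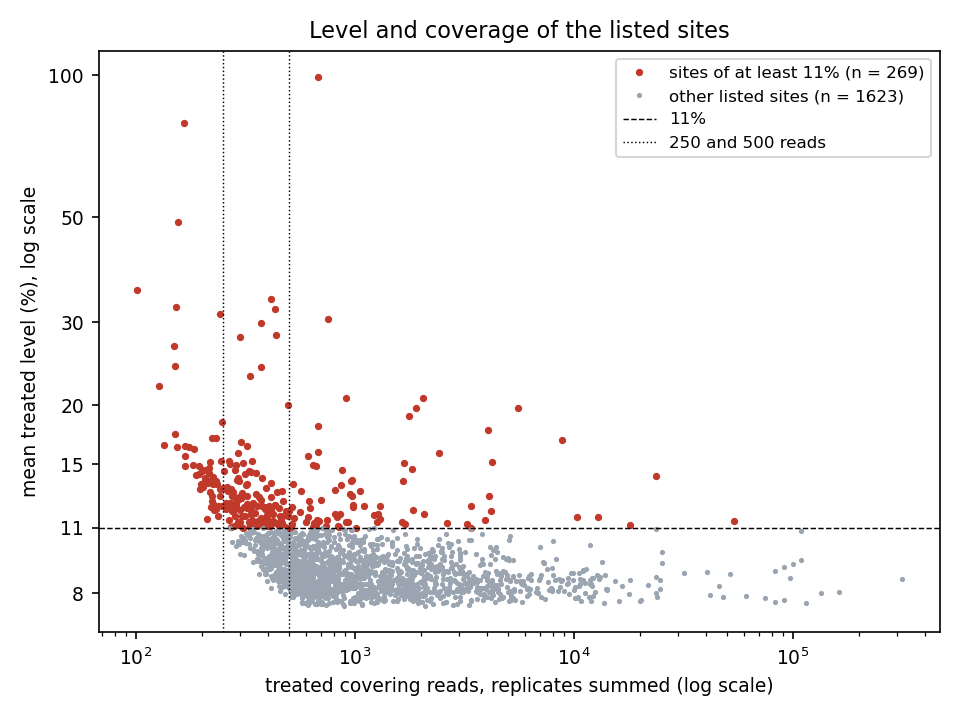
Mean treated level (%, vertical axis, log scale) against treated covering reads summed over both replicates (horizontal axis, log scale) for the 269 high-level sites (red) and the 1623 other listed sites (grey). The dashed line marks 11% and dotted lines mark 250 and 500 reads. Left of 250 reads all listed sites are red, and the lower edge of the cloud sinks with coverage to about 7.5%.

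Deeply covered high-level sites were few. At 337 sites no library fell below 1000 covering reads, and 16 of them (4.75%), in 15 genes, were high-level. Their levels ran from 11.02% to 19.7%, and the median of the remaining deep sites was 8.44%. In 12 of these 16 both treated replicates reached 11%, and in 8 the Wilson interval lay above it.

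GAD1, the glutamate decarboxylase of the stress response, was the highest, with 631 of 3247 and 456 of 2285 mutated reads in the treated libraries, against 4 of 3172 and 2 of 2746 in input (chromosome XIII, position 772104, plus strand). CTS1, the chitinase that parts mother and daughter cells, had 17.3% and 16.5% from 5113 and 3721 treated reads, against 1 of 4576 and 1 of 3807 input reads (chromosome XII, position 708507, minus strand). The two-sided Fisher exact p between its treated replicates was 0.288, unadjusted.

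SSB1 and SSB2, paralogs of the ribosome-bound Hsp70, reached 14.3% and 16.0% (SSB1) and 18.6% and 16.9% (SSB2) in treated replicates 1 and 2. RPL4A and RPL4B, paralogs of large-subunit protein uL4, reached 11.1% and 12.1% (RPL4A) and 11.7% and 12.2% (RPL4B). Reads of each pair can be shared between its genes, so the sites of a pair may not be separate observations. In both RPL4 genes the high-level site lay 4 nt from a site of lower level, 8.04% in RPL4A and 8.84% in RPL4B.

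UTH1, a cell wall protein of the SUN family, held a pair of high-level sites 78 nt apart at very deep coverage. The upstream position had 11.2% and 11.1% in the treated libraries, from 10714 and 7406 reads, and the next had 14.4% and 14.0%, from 14411 and 9326 reads. Their Wilson intervals, 10.7% to 11.6% and 13.8% to 14.7%, did not overlap. ENO1, a glycolytic enolase, was the deepest high-level site with 31316 and 22597 treated reads, of which 11.2% and 11.5% were mutated, against 0.0548% and 0.0551% of input reads. Its paralog ENO2 can share reads with it.

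SDH1, the flavoprotein of succinate dehydrogenase, had 13.7% and 12.05%, and ILV6, the regulatory subunit of acetolactate synthase, had 11.8% and 12.7%. Levels between 11.02% and 11.6% were found at RTC3, GLC3 (the glycogen branching enzyme), ARC1 (a cofactor of aminoacyl-tRNA synthetases), ARC40 (a subunit of the actin-nucleating Arp2/3 complex) and ADE16 (purine synthesis). The Wilson intervals of these 5 included 11%. The named deep sites ran from 0 of 3027 mutated input reads at ARC40 to 0.104% at SSB2.

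Outside the deep group the Wilson interval also lay above 11% for many sites of lower coverage. In all, 61 of the 269 high-level sites (22.7%), in 60 genes, had a lower bound of at least 11%. Of these 61, 16 had under 250 summed treated reads and 16 had from 250 to under 500. A level under 20% was found at 41 of the 61. Among them were STP3, a zinc finger protein (19.7% ± 2.20), ADY2, an acetate transporter (19.0% ± 1.34), IST2, which tethers the endoplasmic reticulum to the plasma membrane (18.1% ± 1.39), PHO89, a phosphate transporter (15.9% ± 1.29), KRE9 of cell wall glucan assembly (15.1% ± 0.538) and LAC1, a ceramide synthase subunit (13.8% ± 0.878), all means ± SD over n = 2. Conversely, the upper bound lay below 11% at 904 of the 1623 other sites (55.7%). At the remaining sites of both kinds counting error alone spans the threshold. The median width of the interval was 6.81 points at the high-level sites and 3.70 points at the other sites.

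The next comparison asks how well the treated replicates agreed at these sites. Both replicates reached 11% at 163 of the 269 high-level sites (60.6%). Treated replicate 1 alone reached it at 26 and treated replicate 2 alone at 80, and 180 other listed sites reached it in 1 replicate. Taken by itself, treated replicate 1 put 252 listed sites at 11% or more, of which 64.7% also reached it in replicate 2, and treated replicate 2 put 360 there, of which 45.3% also reached it in replicate 1. The median absolute difference between replicates was 2.35 points at the high-level sites, against 0.767 points at the other sites. Divided by its binomial standard error the median was 0.739, against 0.476, under 1 standard error at the median site of either kind and a measure chosen after the data were seen. Other sites had at least 7.5% in each replicate and a mean under 11%, which limits how far their replicates could differ.

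By two-sided Fisher exact test of treated replicate 2 against replicate 1, with Benjamini-Hochberg adjustment over all 1892 sites, 0 high-level sites were called different, and over the whole list 0% were. The shallow site of RDH54, at 24.6% and 45.5%, was not called either, so this count does not show that the replicates agreed. At an unadjusted p of 0.05 the count was 20 of 269 high-level sites (7.43%), against 2.75% of all listed sites, and replicate 2 was higher in 17 of the 20. The smallest values were those of RPB2, the second-largest subunit of RNA polymerase II, with 9.13% in treated replicate 1 and 17.3% in treated replicate 2 (exact p = 0.000623, adjusted p = 0.819), ADE16 with 9.19% and 12.8% (exact p = 0.000866), KIP3, a kinesin that shortens microtubules, with 11.2% and 25.7% (exact p = 0.00424), TKL1, a transketolase, with 14.2% and 9.84% (exact p = 0.00518), and SDS22, a regulator of protein phosphatase 1, with 9.20% and 17.1% (exact p = 0.00617). All of these are unadjusted unless stated. High-level sites with an unadjusted p under 0.05 were 5.36% under 250 summed treated reads and 3.03% from 250 to under 500. In the deeper classes they were 17.4% (500 to under 1000 reads), 12.5% (1000 to under 2000) and 15.8% (from 2000 on). The shares of other listed sites from 250 reads on were 0.410%, 0.951%, 2.04% and 4.44%, in the same order of classes.

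Replicate 2 was the higher one at 182 of the 269 high-level sites (67.7%), with a median shift of 1.30 points, and at 56.6% of the other sites, with a median shift of 0.147 points. It was also the shallower treated library at the median site. Across the 269 sites, which share libraries, a threshold on the mean and the coverage pattern, Pearson's r between replicates was 0.898 and Spearman's rho 0.211. Without RPS25A and RPS25B, left out after their values were seen, Pearson's r was 0.733.

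**Figure D3:**
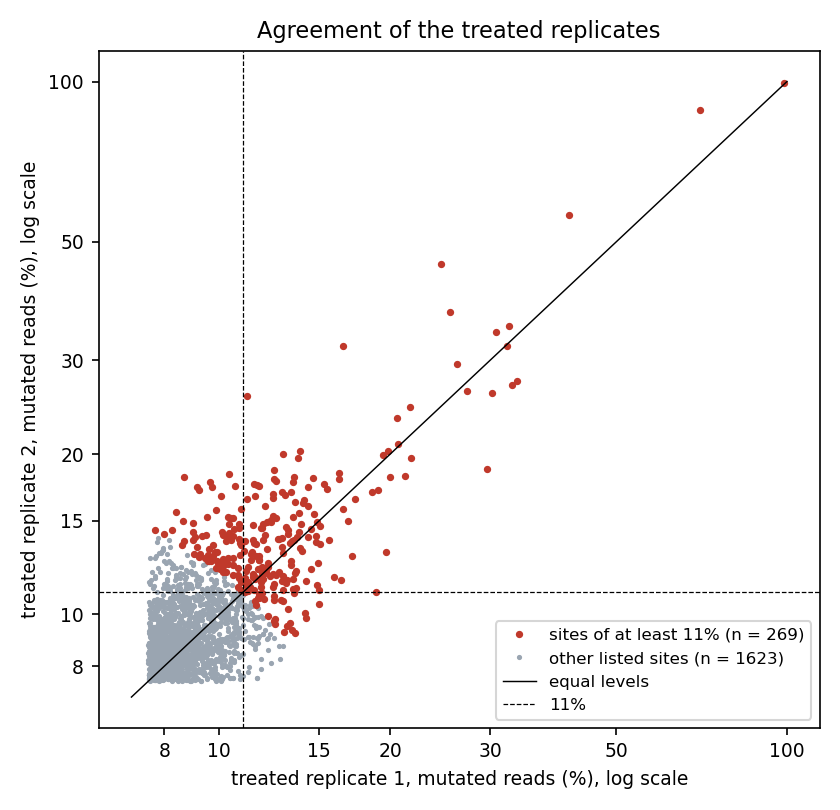
Mutated reads (%) in treated replicate 2 (vertical axis) against treated replicate 1 (horizontal axis), both on log scales, for the 269 high-level sites (red) and the 1623 other listed sites (grey). The solid line marks equal levels and dashed lines mark 11%. Of the red points 163 lie above 11% in both replicates, 80 in replicate 2 alone and 26 in replicate 1 alone.

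The input background was low at the high-level sites. No mutated read was seen in either input library at 214 of them (79.6%), against 998 of the other sites (61.5%), which were deeper. A single mutated read was seen at 33, 2 reads at 8, 3 reads at 5 and more than 3 at 9. Summed over sites, 80 of 147087 reads (0.0544%) were mutated in input replicate 1 and 64 of 119535 (0.0535%) in input replicate 2. The corresponding shares at the other sites were 0.0469% and 0.0439%. With both input libraries summed the share was 0.0540% at the high-level sites (Wilson 95% interval 0.0459% to 0.0636%) and 0.0455% at the other sites (0.0436% to 0.0475%), and the intervals overlapped. RPS25A and RPS25B gave 9 of the 144 mutated input reads, and without them the share was 0.0508%. Within classes of summed treated coverage the share was higher at high-level sites than at other sites in each class that held both. From 250 to under 500 reads it was 0.0321% (14 mutated input reads, interval 0.0191% to 0.0539%) at high-level sites, against 0.00927% (9 reads, 0.00488% to 0.0176%) at other sites, and these intervals did not overlap. From 500 to under 1000 reads the shares were 0.0667% and 0.0379%, or 0.0520% without RPS25A, from 1000 to under 2000 reads 0.0587% and 0.0441%, and from 2000 reads on 0.0573% and 0.0475%, with overlapping intervals. No other site had an input fraction above 0.503% in input replicate 1 or 0.521% in input replicate 2. Whether the authors' selection allowed fewer input reads at sites of lower level was not tested, so nothing follows from these differences in share.

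Beyond PRP19, the highest input fractions after the RPS25 pair were those of SND1, a factor of protein targeting to the endoplasmic reticulum, with 3 of 876 summed reads (0.342%), and SKY1, a kinase of RNA-binding proteins, with 1 of 308 (0.325%). Between the input replicates 0 sites differed after adjustment by two-sided Fisher exact test (0% of the list), and at an unadjusted p of 0.05 the count was 0 of the high-level sites and 3 of all listed sites (0.159%). In the treated-against-input test 269 of 269 high-level sites were called higher in treated RNA, as were 100% of the listed sites. The level that chose these sites is part of that contrast, so nothing follows from this count.

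Other listed sites of the same gene were mostly below 11%. A high-level site was the lone listed site of its gene in 178 cases, and 90 high-level sites (33.6%) lay in genes with several listed sites, against 59.9% of the other sites. Of the 1061 sites in genes with several sites 8.48% were high-level, and of the 828 in genes with 1 site 21.5%. In 73 of the 81 genes with several sites and a high-level one, it was the only one of the gene to reach 11%. The 126 remaining sites of these 81 genes had a median level of 8.97%, with a range from 7.52% to 10.9%. In genes with several sites but no high-level one the median was 8.80%. From 10% to under 11% lay 21.4% of the 126 sites, and 14.4% of the 845 sites in the genes without a high-level site. The high-level site had fewer treated reads than the mean of the other sites of its gene in 59 of 90 cases.

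Levels of sites in the same transcript could lie far apart. OSH7 had 33.6% ± 1.69 at its high-level site and 9.72% ± 1.59 at its other site, and BLM10 had 32.0% ± 0.212 and 10.4% ± 0.702. KGD1 had 7 listed sites, of which the high-level site (chromosome IX, position 125158, plus strand) had 20.7% ± 1.46 and the other 6 had 8.15% to 10.6%. It was covered by 909 summed treated reads and the others by 614 to 1217. At FMP48 the site with 20.8% ± 0.214 lay 10 nt from a site with 8.76% ± 1.37. At SSB1 the site with 15.2% ± 1.16 lay 9 nt from one with 8.03% ± 0.0450, with 4236 and 4111 summed treated reads. The 2 further sites of SSB1 had 8.96% ± 0.211 and 10.1% ± 0.595. At GAD1 the level was 19.7% ± 0.370 at one site and 9.44% ± 0.389 at the other, 319 nt away. HBT1 had 24.1% ± 7.67 at its high-level site and 7.82% to 10.1% at 3 others. In ENO1 the 2 sites had 11.4% ± 0.191 and 8.29% ± 0.410 (SD, n = 2 in each case).

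The other genes with 4 or 5 listed sites and 1 high-level site follow. SPF1, an ATPase of the endoplasmic reticulum, had 15.2% ± 1.67 at its high-level site and 8.60% to 10.1% at its other sites, and SDH1 had 12.9% ± 1.15 against 7.60% to 9.60%. RPM2, the protein subunit of mitochondrial RNase P, had 12.1% ± 2.33 against 8.49% to 10.1%. CAT2, a carnitine acetyltransferase, had 11.8% ± 0.202 at its high-level site, and its other sites had 10.9%, 10.7%, 10.6% and 7.52%. In GDB1 (glycogen debranching), PDR5 (a drug exporter) and AIP5 (an actin regulator) the high-level sites had 11.5% ± 1.02, 11.3% ± 2.56 and 11.3% ± 0.754, against other sites of up to 9.14%, 9.43% and 9.31%.

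More than 1 high-level site was found in 8 genes, which held 17 of them, and in 6 of these genes a pair lay within 100 nt. Sites this close can be covered by the same reads, and how many they share was not measured. SEC7, an activator of the Arf GTPases of the Golgi, had 3 of its 4 sites at 12.8%, 11.4% and 11.04%, and the last 2 lay 2 nt apart. EPO1, a protein of polarised growth, had 14.1% and 13.7% at positions 3 nt apart. In IRA2 the site with 23.1% lay 14 nt from one with 14.9%, and its 2 other sites had 9.29% and 8.67%. MFG1, a regulator of filamentous growth, had 11.1% and 12.2% at 24 nt, and VHR2, a transcription factor, had 11.2% and 11.4% at 46 nt. The pair in UTH1 is described above. COQ10, a coenzyme Q binding protein, had 11.7% and 12.1% at 122 nt, and UBP7, a ubiquitin protease, had 16.3% and 16.5% at 1274 nt, from 135 to 174 summed treated reads. Another listed site of the same gene within 10 nt was found for 10 high-level sites (3.72%) and for 6.10% of the other sites, and within 100 nt for 27 (10.04%) and for 17.3%.

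**Figure D4:**
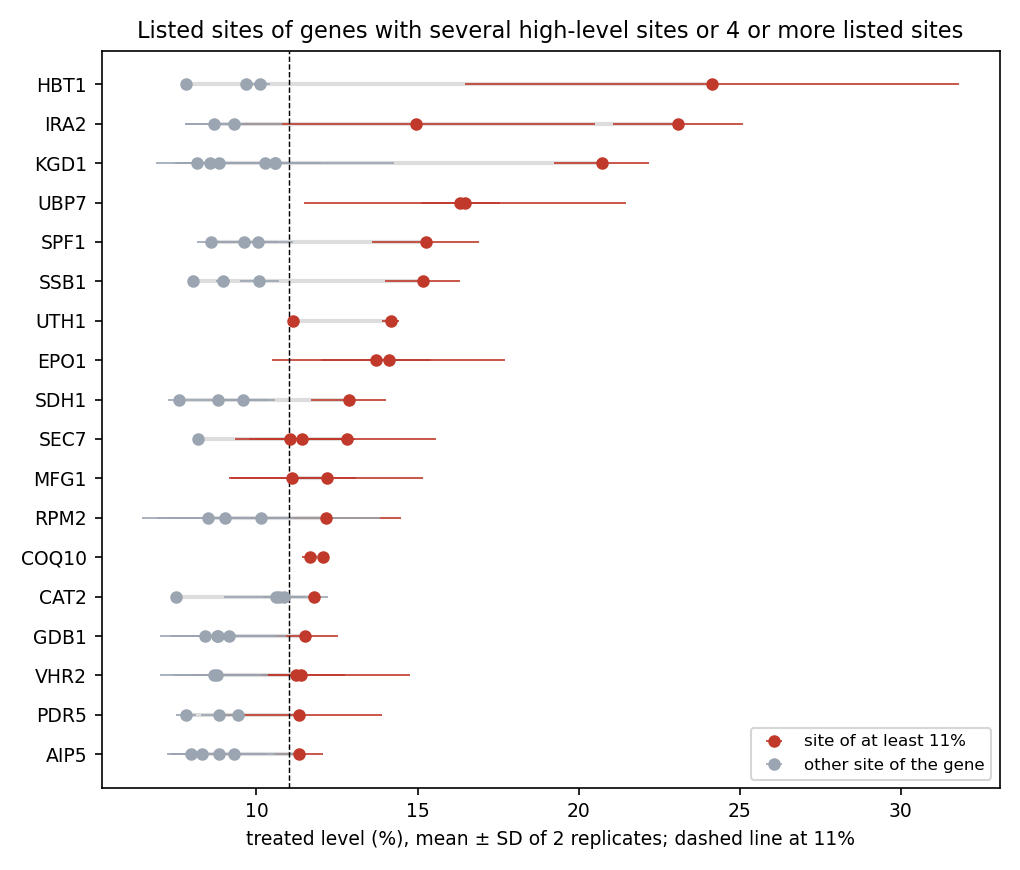
Treated level (%, horizontal axis, mean ± SD of 2 replicates) of each listed site in the genes with more than 1 high-level site or with 4 or more listed sites of which 1 or more is high-level. Red points are high-level sites, grey points are the other sites of the gene and the dashed line marks 11%. In KGD1, HBT1 and SSB1 a single red point lies well right of the grey ones.

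The functions of the genes were described with 20 lists of named genes, on which 109 of the 259 genes appear. Beside each count stands the share over all genes with a listed site, 20.7%. Shares are descriptions, and list coverage differs. Among sites of at least 500 summed treated reads, 81 of 1460 (5.55%) were high-level.

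Transcripts of nuclear processes had large shares at shallow coverage. In chromatin and transcription 11 of 25 genes (44.0%) had a high-level site, led by SNF5 of the SWI/SNF remodeller (16.4% ± 1.58), TAF2 of the general factor TFIID (14.9% ± 0.0522), RSC9 of the RSC remodeller (14.3% ± 0.592) and RPB2 (13.2% ± 5.798). In DNA repair, recombination and replication it was 4 of 9 genes (44.4%), which were RDH54, SMC4 of condensin (13.3% ± 0.767), RFA1 of the single-strand binding protein RPA (13.3% ± 0.838) and MCM4 of the replicative helicase (12.2% ± 2.50). In nuclear pore, RNA export and decay it was 7 of 24 (29.2%), among them HRB1, an mRNA-binding protein (14.4% ± 1.24), PSE1, a nuclear import receptor (12.2% ± 0.361), MLP2 of the pore basket (12.2% ± 2.53) and PUF3, a binding protein of mitochondrial mRNAs (11.3% ± 0.143). The median summed treated coverage of the listed sites of these lists was 530, 362 and 521 reads, against 801 over all genes. With at least 500 reads 2 of 15, 0 of 2 and 1 of 17 of their sites were high-level.

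Cell wall and secreted proteins had 10 of 34 genes (29.4%) with a high-level site at a median coverage of 1324.5 reads, above that over all genes. Those with the highest levels were SCW11, CTS1, DSE2, a daughter-specific cell wall protein (15.9% ± 2.13), and KRE9, and the others were UTH1, MNN4, PLB3, YPS1, DSE4 and FKS1, a subunit of glucan synthase. With at least 500 reads 7 of 49 sites were high-level. Vesicle coats, tethers and lipid transfer had 8 of 28 genes (28.6%), with OSH7, VPS41, SFB3 and PEP3 as the highest, followed by COG2, clathrin heavy chain CHC1, SEC27 and SEC7, and 2 of 34 sites at 500 reads or more.

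Shares of genes near that over all genes were found in several lists. Protein kinases and phosphatases had 6 of 25 genes (24.0%), with PBS2 of the osmotic stress cascade (14.4% ± 0.541), CDC15 of mitotic exit (14.2% ± 0.766), SKY1 and STE20. Actin, septin and cell polarity had 7 of 32 (21.9%), with HBT1, KIP3, HOF1 of cytokinesis (16.2% ± 0.512) and BZZ1. The proteasome and ubiquitin pathway had 7 of 33 (21.2%), with ECM29, BLM10, the ubiquitin ligase RSP5 (12.9% ± 1.86) and the conjugating enzyme RAD6 (12.2% ± 1.13). Plasma membrane and vacuolar transporters had 10 of 49 (20.4%), with VHT1, ADY2, PHO89 and YOR1, a drug exporter (13.4% ± 6.69). Lipid and sterol synthesis had 8 of 43 (18.6%), with LAC1, PHS1 of fatty acid elongation (12.99% ± 0.0432), HMG2 of the sterol pathway (12.02% ± 1.29) and PAH1, a phosphatidate phosphatase (11.9% ± 1.45). Storage carbohydrates had 3 of 17 (17.6%), GDB1, GLC3 and GIP2. With at least 500 reads, high-level sites were 1 of 23 in kinases and phosphatases, 2 of 41 in actin and polarity and 3 of 41 in the proteasome list. They were 6 of 75 in transporters, 6 of 59 in lipid and sterol synthesis and 3 of 23 in storage carbohydrates, against 5.55% over all listed sites.

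Metabolic, translation and some other lists, mostly of deep coverage, had smaller shares of genes. Amino acid and one-carbon biosynthesis had 7 of 45 genes (15.6%), with the glutamate synthase GLT1 (15.2% ± 3.84), ARO1 of aromatic synthesis (15.02% ± 3.03), SER3 (13.1% ± 2.47) and MET12 (12.4% ± 0.789). Tricarboxylic acid cycle, respiration and acetate use had 5 of 33 (15.2%), with KGD1, ALD5, SDH1 and CAT2. Translation factors had 3 of 20 (15%), which were GCN1, GCD2 and DED1, with levels of 11.8% to 11.998%. Autophagy and vacuolar proteases had 3 of 21 (14.3%), BSD2, DAP2 and ATG15. Chaperones had 3 of 25 (12%), SSB2, SSB1 and CCT8 of the chaperonin. Cytosolic ribosomal proteins had 4 of 43 (9.30%), all from the pairs RPS25 and RPL4. Aminoacyl-tRNA synthetases had 1 of 11 (ARC1), mitochondrial import, carriers and translation 1 of 17 (MTM1), and glycolysis and ethanol fermentation 1 of 20 (ENO1). With at least 500 reads the high-level sites of these lists, in the order given, were 2 of 63, 3 of 62, 1 of 31 and 1 of 29. For the rest they were 2 of 50, 3 of 48, 1 of 17, 0 of 20 and 1 of 41, against 5.55% over all listed sites. The median summed treated coverage was 23725 reads in glycolysis, 4624 in ribosomal proteins and 4090 in chaperones, the deepest of the 20 lists. It was 789 in autophagy and 777.5 in mitochondrial import, below the 801 over all genes. The part of coverage in the shares of genes was not tested further.

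**Figure D5:**
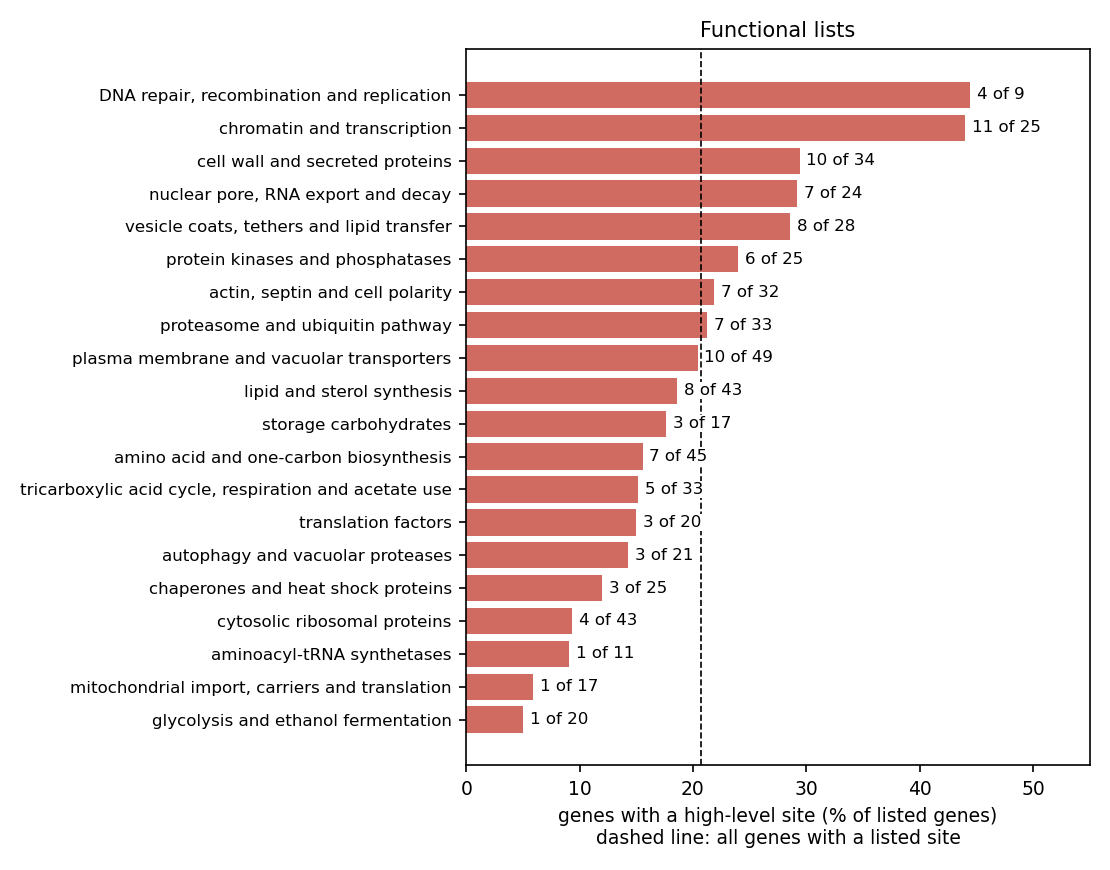
Share of genes with a high-level site (%, horizontal axis) among the genes of each of 20 functional lists that have any listed site, with counts beside the bars. The dashed line marks 20.7%, the share over all 1253 genes. Lists of DNA and chromatin genes stand at 44%, and glycolysis stands at 5.00%.

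High-level sites were spread over all 16 nuclear chromosomes and both strands, 134 on plus and 135 on minus. The share of listed sites that were high-level ran from 8.63% on chromosome XVI (12 of 139) to 20.9% on chromosome XV (33 of 158).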

How the data were processed

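Poly(A)+ RNA was sequenced in 2 treated and 2 input libraries, grouped by sample title. Per the submitters' processing notes, cutadapt and STAR were used, with versions, build and site caller not given in the sources used. Counts of covering and of mutated reads per site were deposited by the authors, and the deposited fraction equals mutated over covering reads, per the file headers and a check of all values. The authors list only sites they selected in both replicates, and the depth of whole libraries is unknown here. The 6 columns of the authors' fold changes and p-values were not used.

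The level is the mean treated fraction, and sites of at least 0.11 were kept. Fisher exact tests (two-sided) ran over all 1892 sites with Benjamini-Hochberg adjustment, called at 0.05, and were tested on simulated data. Coverage differed between the replicates of a group by more than sampling noise (chi-square over degrees of freedom 1.80 treated, 1.88 input), and they were counted as separate libraries. Where a library showed 0 mutated reads, 3 reads divided by coverage bound the share. Gene names came from RefSeq's table for assembly R64, used for names only, which matched the identifiers of 268 high-level sites.

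The high-level sites, the gene lists and the tests were chosen with earlier results of these data known. Named sites were those of at least 20%, genes with 2 or more high-level sites, the 10 deepest, the 5 with the highest input fraction, the 5 with the smallest p between replicates, 5 on each side of the threshold, up to 4 per list, and genes with 4 or more listed sites. STP3, IST2 and others named for their intervals or as further list members were chosen after their values were seen. Coverage classes, the ratio of the replicate difference to its standard error and the removal of the RPS25 pair from replicate correlations were added after the data were seen. Alternatives varied the threshold, coverage minimum, replicate use and replicate block. Sequence context was not analysed here, because no genome was used. Python 3.11.15, numpy 2.4.6, scipy 1.17.1, pandas 2.3.3 and matplotlib 3.10.9 were used.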

Additional observations from a re-analysis of the deposited data

How the results depend on the processing

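The number of high-level sites follows the threshold, at 520 for 10% and 50 for 15% against 269, with 470 and 49 genes against 259, and 43 genes and 1 gene with several high-level sites against 8. Coverage minimums in every library, which drop shallow sites by construction, left 81 sites in 80 genes at 200 reads and 16 sites in 15 genes at 1000 reads, and genes with several were 5 at 100 reads, 1 at 200 and 1 at 1000. A Wilson lower bound of 11% left 61 sites, 60 genes and 1 gene with several. With 1 treated replicate left out the counts ranged from 252 to 360 sites, 240 to 335 genes and 11 to 23 genes with several, 23 without replicate 1. Sites higher in treated RNA were 1892 to 1892 without a replicate and 337 at 1000 reads (high-level 269 to 269, 81 at 200 reads and 16 at 1000), by construction of the list. High-level sites with an unadjusted p under 0.05 between replicates were 12 of the 81 at 200 reads and 2 of the 16 at 1000, against 20 of 269. Median summed treated coverage was 453.5 reads at 10% and 305 at 15%, against 356, and the input share 0.0773% at 15%, against 0.0540%. The median absolute difference between replicates was 0.910 points at 1000 reads, against 2.35. The remaining alternatives left counts within 1.5 times.

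Titles number the replicates 1 and 2 in both groups without saying what a number shares, and treated and input deviations had a correlation of 0.00119 for log2 coverage and 0.157 for the mutated fraction over the 269 sites. With the replicate block (Cochran-Mantel-Haenszel test) 1892 sites and 269 high-level sites were called, and no call changed. Sequence context was not run. Depth limits single levels. The Wilson lower bound reached 11% at 16 of 56 high-level sites under 250 summed treated reads and at 16 of 132 from 250 to under 500. It did so at 13 of 46 from 500 to under 1000, 6 of 16 from 1000 to under 2000 and 10 of 19 from 2000 reads on. Most intervals thus spanned the threshold in every class but the deepest.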

Other observations

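Some gene groups stood out only once the values had been seen, so the following counts are descriptions of groups chosen afterwards. Genes of daughter cell separation had a high-level site in 6 of the 9 genes with any listed site, against 20.7% over all genes with one. These were SCW11 (20.1% ± 0.358), CTS1 (16.9% ± 0.618), DSE2 (15.9% ± 2.13), EGT2, a cell wall protein (15.6% ± 4.37), DSE4, a glucanase (12.2% ± 0.895), and ASH1, a repressor of mating-type switching in daughter cells (11.02% ± 0.344). At sites of at least 500 summed treated reads 4 of 10 were high-level, against 5.55% over all listed sites.

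In the Ras and cyclic AMP pathway 6 of 14 genes had a high-level site, against the same 20.7%. They included both Ras-inactivating genes, IRA2 (23.1% ± 2.01) and IRA1 (12.8% ± 3.32), and the Ras activator CDC25 (15.2% ± 2.54), besides YAK1, PDE2 and GPB2. Here 1 of 12 sites of at least 500 reads was high-level, against 5.55% over all listed sites. Chromatin remodellers and deacetylases had 13 of 21 genes (20.7% over all genes), from SNF5 at 16.4% to ASH1 at 11.02%, at a median coverage of 384 reads, and 1 of 8 sites at 500 reads or more (5.55% over all listed sites). Of the 11 genes of ubiquinone synthesis, 3 of the 6 with a listed site had a high-level one (20.7% over all genes), COQ3 (12.8% ± 1.14), COQ2 (12.1% ± 0.122) and COQ10 at a pair of sites, all under 500 summed treated reads. All values are mean ± SD over n = 2 treated replicates.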
